A study of Mus musculus with 6 samples.

Results

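A set of 10 genes that sit downstream of the ERK kinases were followed in mouse pro-B cells: the transcription factor genes Egr1, Egr2, Egr3 and Etv5, the early target Phlda1, the phosphatase genes Dusp5 and Dusp6, and the inhibitor genes Spry1, Spry2 and Spred1. The 10 genes were taken by name from 19937 genes that had a probe set with a single gene symbol, and the brightest probe set stood for a gene. They were proposed with earlier results of the same comparison known, among them the lower values of Egr1 and Phlda1, so their differences between the groups are a description. The cells were pro-B cells of strain C57/BL6 transformed by v-Abl, an oncogenic tyrosine kinase, with genotype Foxo1f/f; ERCre in all 6 samples. In that genotype both copies of Foxo1, a forkhead transcription factor of early B cells, carry loxP sites, and Cre recombinase is fused to an oestrogen receptor domain that tamoxifen activates. The tamoxifen group held 3 samples exposed to 1 µM tamoxifen for 2 days, and the untreated group held 3 samples without it. The labels describe the tamoxifen samples as Foxo1 knockout and the untreated samples as WT, although both carried the floxed alleles and the Cre fusion. A tamoxifen control with intact Foxo1 was not analysed here, so effects of tamoxifen, of Cre activity and of Foxo1 loss cannot be told apart. The labels do not state that replicates were separate cultures, or that more than 1 transformed line was used, so errors and p-values cover the spread between these 6 samples only, and that spread may be technical.

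ERK is the last kinase of the RAS, RAF and MEK cascade, which carries signals from growth factor receptors, antigen receptors and oncogenic tyrosine kinases to the nucleus. Its first transcriptional targets, such as the Egr genes, are switched on within minutes through serum response factor and its ETS-domain partners. A later set of targets feeds back on the pathway: DUSP phosphatases remove the activating phosphates from ERK, while Sprouty and SPRED proteins act upstream, at the level of RAS and RAF. In developing B cells, ERK signalling lies downstream of cytokine receptors and of the pre-B cell receptor.

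The arrays were similar in scale, with medians between 100.9 and 106.9 in tamoxifen samples and between 103.7 and 109.1 in untreated samples. Pearson correlations of normalised log2 values lay between 0.986 and 0.994 within a group and between 0.985 and 0.993 across groups, and precision is limited by having 3 arrays per group. On the first principal component, which held 32.3% of the variance, the array numbered 1 lay at -27.6 in the tamoxifen group and at -19.4 in the untreated group, and the other arrays lay between 5.52 and 20.5. On the second, which held 26.8%, the arrays numbered 1 lay apart, at 15 in the tamoxifen group and at -26.4 in the untreated group. The other arrays lay between -12.7 and 19.2 there. The labels name no batch, and values without the 2 arrays numbered 1 are given below. Foxo1 had intensities of 116, 151 and 134 in tamoxifen samples and of 806, 624 and 512 in untreated samples, or -2.13 ± 0.15 (SE) on the log2 scale, and it passed (limma adjusted p = 0.0178). It passed in 8 of 16 alternative settings, and the call was lost in a fit blocked on replicate number (limma adjusted p = 0.0936), on leaving out any one of 5 of the 6 arrays, with common median scaling or without both arrays numbered 1 (limma adjusted p = 0.107). The sources used here do not place its probe set relative to the deleted part. Of 12 measured pro-B cell markers 10 lay above the median of all probe sets, and the exceptions were Rag1 and Rag2. The summed marker intensity was 19527 to 21228 in tamoxifen samples and 16591 to 20329 in untreated samples, and without overlap 6 markers lay higher in tamoxifen samples, where 5.03% of all probe sets did, and 1 lay lower, where 4.87% did. None of 8 myeloid markers and 2 of 7 measured T cell markers lay above the median. Summed myeloid intensity was 522 to 536 in tamoxifen samples and 508 to 576 in untreated samples, and summed T cell intensity was 588 to 719 in tamoxifen samples and 585 to 684 in untreated samples. Of the myeloid markers 1 (Lyz2) lay lower without overlap after normalisation, where 4.87% of all probe sets did. All 7 stromal markers were measured, 3 lay above the median and 7 had negative log2 differences, and their summed intensity was 725 to 818 in tamoxifen samples and 712 to 899 in untreated samples. Of 7 erythroid markers 4 were measured, 2 lay above the median, 3 had negative log2 differences and 1 (Klf1) lay lower without overlap, and their summed intensity was 339 to 385 in tamoxifen samples and 379.7 to 391 in untreated samples. The part of these marker lists in the values below was not tested. In a bulk sample, fewer cells that express a gene and less RNA per cell cannot be told apart.

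Promoter windows of 7 of the 10 genes were found in a RefSeq table of build GRCm38.p6, each running from 250 bases before a transcript start to 50 bases after it. The genes Egr1, Egr3 and Phlda1 were not among them. The serum response element known as the CArG box, searched on both strands and counted once where both strands matched, was present in windows of 2 of these 7 genes, Egr2 and Dusp5, and in 1.81% of the 27025 genes of the table. The forkhead motif GTAAACA, which FOXO proteins can bind, was present in 1 of the 7, Etv5, and in 4.05% of the genes of the table. None of the 7 genes had the EGR motif GCGNGGGCG (6.27% of genes), the ETS motif CCGGAAG (9.93%), the AP-1 motif TGANTCA (8.97%), the cyclic AMP response element TGACGTCA (2.03%) or TATAAA (15.7%). A match is a run of letters and not a measured binding site. The 250 bases before the start are shown for these 3 genes because they hold the matches to the serum response and forkhead motifs, which are in capitals.
Egr2, number 3 of 5 listed starts, chr10:67537619-67537868, plus strand: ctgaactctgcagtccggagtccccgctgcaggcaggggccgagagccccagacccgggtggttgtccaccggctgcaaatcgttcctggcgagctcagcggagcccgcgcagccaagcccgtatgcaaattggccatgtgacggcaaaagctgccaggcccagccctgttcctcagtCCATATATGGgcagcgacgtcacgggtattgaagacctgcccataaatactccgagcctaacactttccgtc
Dusp5, chr19:53528895-53529144, plus strand: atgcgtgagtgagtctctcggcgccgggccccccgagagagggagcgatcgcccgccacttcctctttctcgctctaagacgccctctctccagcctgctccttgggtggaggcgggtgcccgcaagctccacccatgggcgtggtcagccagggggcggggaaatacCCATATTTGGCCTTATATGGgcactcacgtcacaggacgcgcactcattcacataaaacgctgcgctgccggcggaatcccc
Etv5, number 1 of 2 listed starts, chr16:22439571-22439820, minus strand: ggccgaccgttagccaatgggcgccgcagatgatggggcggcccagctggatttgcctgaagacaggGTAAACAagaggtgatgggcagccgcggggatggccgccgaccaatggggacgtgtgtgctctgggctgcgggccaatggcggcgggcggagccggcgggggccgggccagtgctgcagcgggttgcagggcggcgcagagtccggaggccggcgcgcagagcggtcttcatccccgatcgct
In Dusp5 there are 2 CArG boxes side by side without overlap, from 82 to 73 and from 72 to 63 bases before the start. The same box of Egr2 lies 72 to 63 bases before the start shown, and it recurs in the windows of starts 4 and 5. The window of start 2 holds another CArG box, and that of start 1 holds none. The forkhead match of Etv5 lies 183 to 177 bases before the start, and the window of the other Etv5 start held none.

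Egr1, Egr2, Egr3 and Etv5 encode transcription factors, and Egr1 and Etv5 had lower values in every tamoxifen sample whereas Egr2 and Egr3 did not separate the groups. Egr1, a zinc finger activator and the best known immediate early gene of the pathway, had intensities of 119.6, 102 and 144 in tamoxifen samples, against 189, 227 and 188 in untreated samples. The highest tamoxifen value lay well under the lowest untreated value. The means were 122 ± 20.8 in tamoxifen cells and 201 ± 22.3 in untreated cells (SD, n = 3 each). On the log2(intensity + 16) scale, used for every fold change here because it steadies dim signals at the cost of understating their change, Egr1 was 1.58-fold lower in tamoxifen cells, a log2 difference of -0.66 ± 0.13 (SE). In the ranking of all 19937 genes by log2 fold change, 29 genes had a lower value than Egr1.

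Egr2, a related factor that is induced by antigen receptor signals in lymphocytes, had intensities of 91.1, 104 and 84.7 in tamoxifen samples, against 92.5, 96.0 and 109 in untreated samples. These values overlapped and lay below the median of all probe sets, where array signal is hard to tell from background. The log2 difference was -0.06 ± 0.09 (SE) and turned to 0.01 without tamoxifen sample 3. Egr3, often induced together with Egr2, was brighter, with intensities of 225, 238 and 258 in tamoxifen samples and of 225, 211 and 238 in untreated samples. Its means of 240.4 ± 16.5 in tamoxifen cells and 225 ± 14.0 in untreated cells (SD, n = 3 each) were within the spread of the samples, with a log2 difference of 0.08 ± 0.09 (SE). Egr3 was the only one of the 10 genes with a positive difference.

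Etv5, a PEA3-family ETS factor whose transcription follows ERK activity in many tissues, had intensities of 505, 471 and 473 in tamoxifen samples, against 681, 795 and 718 in untreated samples. The tamoxifen samples were tightly grouped and lay under all untreated samples. The means were 483 ± 19.2 in tamoxifen cells and 731 ± 58.2 in untreated cells (SD, n = 3 each), 1.51-fold lower with a log2 difference of -0.60 ± 0.08 (SE). Etv5 was the one gene of the 10 with a second probe set, a dimmer one that the choice of the brightest had passed over. That probe set had intensities of 349, 387 and 389 in tamoxifen samples, against 512, 578 and 521 in untreated samples. It showed the same separation, with a log2 difference of -0.51 ± 0.09 (SE). The sources used here do not say whether the 2 probe sets read the same transcript.

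Phlda1 encodes a pleckstrin homology-like domain protein, and its transcript is a member of published human signatures of ERK pathway output. Its intensities were 283, 318 and 285 in tamoxifen samples, against 470.3, 495 and 428 in untreated samples. All tamoxifen samples lay far under all untreated samples. The means were 295 ± 19.4 in tamoxifen cells and 464 ± 34.2 in untreated cells (SD, n = 3 each), 1.56-fold lower with a log2 difference of -0.64 ± 0.08 (SE). This size was close to that of Egr1, and 31 of all genes had a lower log2 fold change.

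**Figure D1:**
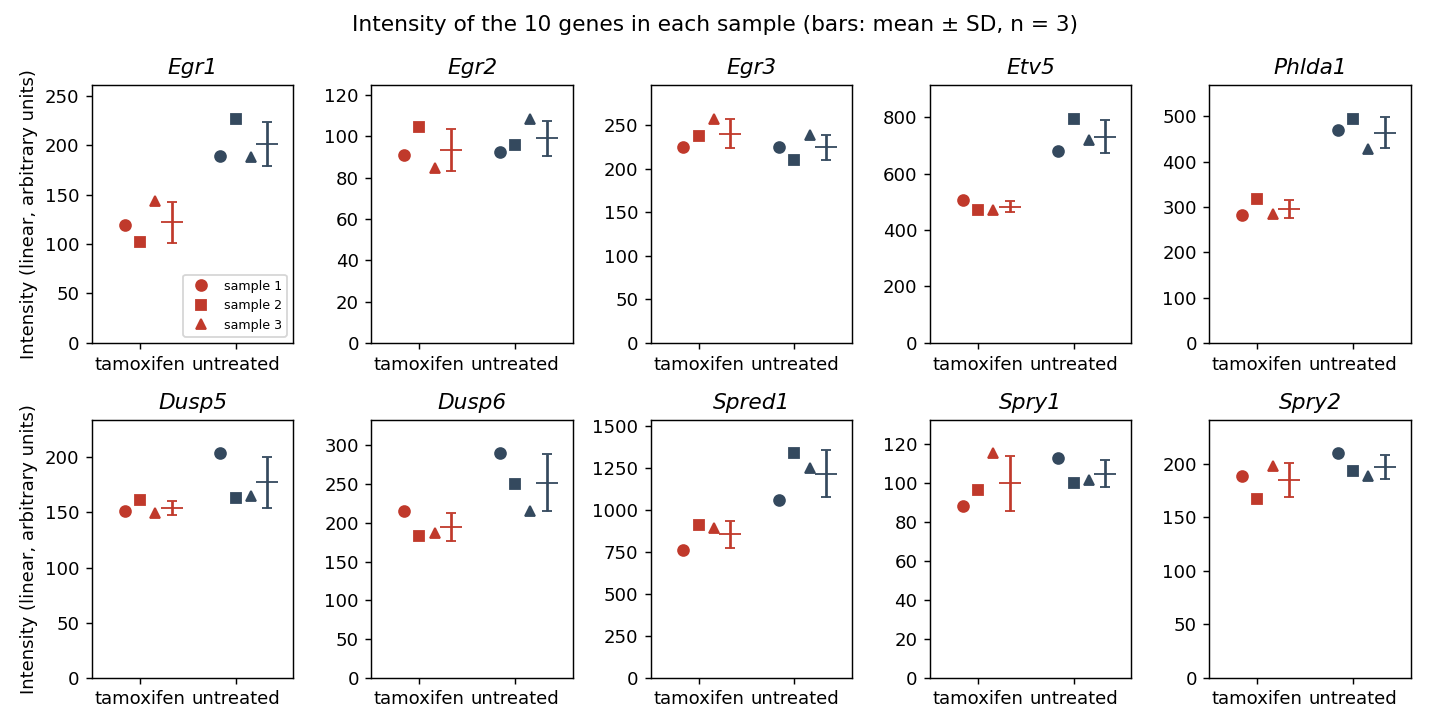
Deposited intensity (linear, arbitrary units, axes from 0) of the 10 genes in tamoxifen samples (red, left) and untreated samples (dark, right), with marker shape for the sample number and bars for the mean ± SD of 3 samples. The groups are separate for Egr1, Etv5, Phlda1, Spred1 and narrowly Dusp5, touch for Dusp6, and overlap for Egr2, Egr3, Spry1 and Spry2.

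The phosphatase genes had smaller differences. Dusp6 encodes the cytoplasmic phosphatase MKP-3, which acts selectively on ERK and is itself induced by ERK signalling. It had intensities of 215.7, 183 and 187 in tamoxifen samples, against 289.8, 250.1 and 215.6 in untreated samples. As deposited, tamoxifen sample 1 and untreated sample 3 touched, and after normalisation every tamoxifen value lay under every untreated value. The means were 195 ± 18.0 in tamoxifen cells and 252 ± 37.1 in untreated cells (SD, n = 3 each), with a log2 difference of -0.35 ± 0.11 (SE). Dusp5 encodes the nuclear counterpart, which dephosphorylates ERK and holds it in the nucleus, and its promoter carries the paired CArG boxes shown above. It had intensities of 151, 161 and 149 in tamoxifen samples, against 204, 163 and 165 in untreated samples. The groups did not overlap, but untreated sample 1 alone stood high and the other untreated samples lay just above tamoxifen sample 2. The log2 difference of -0.18 ± 0.10 (SE) was -0.08 without untreated sample 1.

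Spred1 differed in the same direction as Egr1, whereas the Sprouty genes had overlapping groups. Spred1, which brings the RAS inhibitor neurofibromin to the membrane, was bright in these cells, with intensities of 761, 911 and 892 in tamoxifen samples, against 1062, 1339 and 1251 in untreated samples. The groups were separate, with the lowest value in tamoxifen sample 1. The means were 855 ± 81.5 in tamoxifen cells and 1217 ± 141 in untreated cells (SD, n = 3 each), 1.43-fold lower with a log2 difference of -0.51 ± 0.14 (SE). Spry1, a feedback inhibitor of receptor tyrosine kinase signalling, had intensities of 87.8, 96.1 and 115 in tamoxifen samples, against 113, 99.9 and 102 in untreated samples. Both the lowest and the highest value belonged to the tamoxifen group. Its signal lay below the median of all probe sets, and its log2 difference of -0.05 ± 0.10 (SE) turned to 0.01 without untreated sample 1. Spry2, a close relative with the same function, had intensities of 189, 167 and 198 in tamoxifen samples, against 209.5, 193 and 188 in untreated samples. The groups overlapped, with a log2 difference of -0.10 ± 0.08 (SE).

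Over the 10 genes, 9 had a negative log2 difference and 1 a positive one, with a median of -0.27, and over all 34760 probe sets the median was -0.01 and 53.9% were negative. The median of the 10 genes was -0.17 without untreated sample 1 and -0.20 without both arrays numbered 1. Without those 2 arrays the log2 differences were -0.69 for Egr1, -0.65 for Etv5, -0.59 for Phlda1, -0.50 for Spred1 and -0.31 for Dusp6, and limma called 0 of the 10 and 0 of all probe sets, with 5 of the 10 and 2488 of all probe sets under 0.05 before adjustment. Limma, fitted on all probe sets with Benjamini-Hochberg adjustment at a threshold of 0.05, called 0 of the 10, where it called 0.0575% of all probe sets. The lowest limma adjusted p among the 10 were 0.0827 for Phlda1, 0.11 for Etv5 and 0.337 for Egr1. At an unadjusted p under 0.05 there were 5 of the 10, all lower in tamoxifen cells, where 2.14% of all probe sets met this. After normalisation 6 of the 10 had every tamoxifen value under every untreated value, where 4.87% of all probe sets did, and as deposited 5 of the 10 did, where 4.26% of all probe sets did. Because the genes were proposed with this comparison known, nothing is read from these shares. In a fit on 19937 genes, each the average of its probe sets, Etv5 (limma adjusted p = 0.0304) and Phlda1 (limma adjusted p = 0.0125) passed, where 0.366% of genes did. With the dimmer probe sets left out, Phlda1 passed (limma adjusted p = 0.0477), where 0.265% of probe sets did.

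The samples of the tamoxifen group were not equal for all genes. After normalisation, tamoxifen sample 1 had 8 of the 10 genes under the lowest untreated value, tamoxifen sample 2 had 8 and tamoxifen sample 3 had 7. The share of all probe sets for single samples was not computed, so nothing is read from these counts. Egr1 was lowest in tamoxifen sample 2, at -0.89 from the untreated mean on the log2 scale, with -0.63 in tamoxifen sample 1 and -0.45 in tamoxifen sample 3. Phlda1 and Spred1 had their lowest values in tamoxifen sample 1, while Etv5 varied little within the group.

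**Figure D2:**
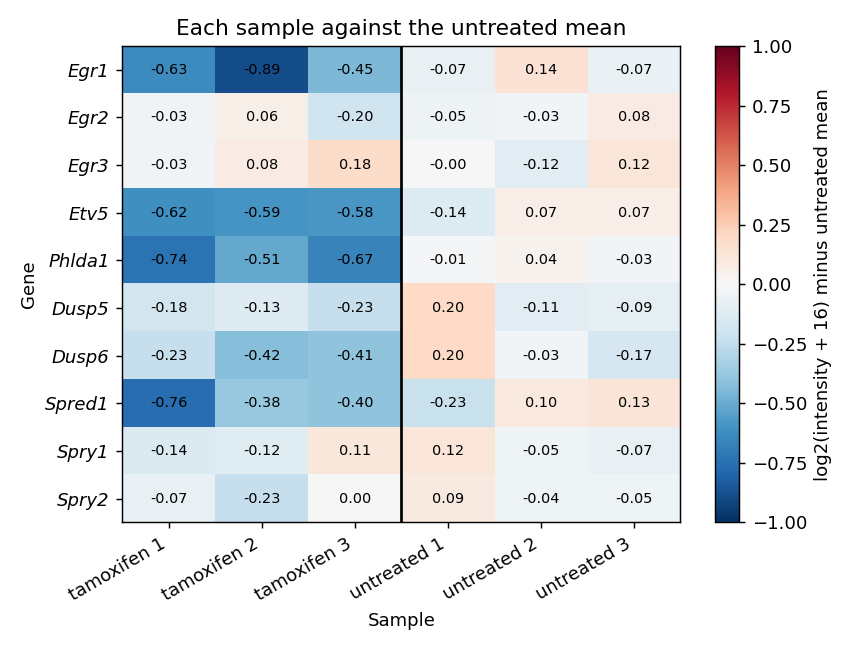
Difference of each sample from the untreated mean on the log2(intensity + 16) scale after normalisation, with genes in rows and samples in columns (tamoxifen left of the line, untreated right of it). Egr1, Etv5, Phlda1, Spred1 and Dusp6 are blue (lower) in all 3 tamoxifen samples, Dusp5 is lower in all 3 but paler, and the remaining genes mix signs or stay near 0.

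Paralogs of the 10 genes and the Egr corepressors were then examined. All 19 listed relatives were measured, and limma called 0 of them over all probe sets, with 1 lower and 0 higher at an unadjusted p under 0.05, where 2.14% and 2.97% of all probe sets were. Their median log2 fold change was 0.00, with 10 negative and 9 positive, against -0.01 over all probe sets. The one relative of the 19 whose groups were separate was Spred2, which shares the RAS-inhibiting function of Spred1. Over all probe sets 4.87% lay lower without overlap and 5.03% higher, so the count is near that share. Spred2 had intensities of 686, 692 and 699 in tamoxifen samples, against 896, 1012 and 859 in untreated samples. Its log2 difference was -0.42 ± 0.08 (SE) with a limma adjusted p = 0.274, and Spred3 measured 0.03 ± 0.09 (SE).

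Of the other PEA3-family factors, Etv4 measured -0.13 ± 0.09 and Etv1 -0.42 ± 0.30 on the log2 scale (SE). The Etv1 value had a wide error because untreated sample 1, at 106, lay apart from 261 and 219 in the other untreated samples, while tamoxifen samples had 106, 154 and 144. With 1 array left out its log2 difference ran from -0.77 (without untreated sample 1) to -0.20 (without untreated sample 2). The remaining Sprouty genes were below the median of all probe sets, with log2 differences of -0.02 for Spry3 and 0.01 for Spry4. Egr4 was also below that median and measured 0.03 ± 0.13 (SE). Nab1 and Nab2, corepressors that bind EGR proteins and are EGR targets themselves, both measured 0.02, with SEs of 0.13 and 0.11. Among the other DUSP genes log2 differences ran from -0.13 for Dusp7, a cytoplasmic ERK phosphatase, to 0.08 for Dusp1 and Dusp2, which are nuclear phosphatases. Phlda2 and Phlda3 measured -0.03 ± 0.06 and -0.09 ± 0.10 (SE).

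**Figure D3:**
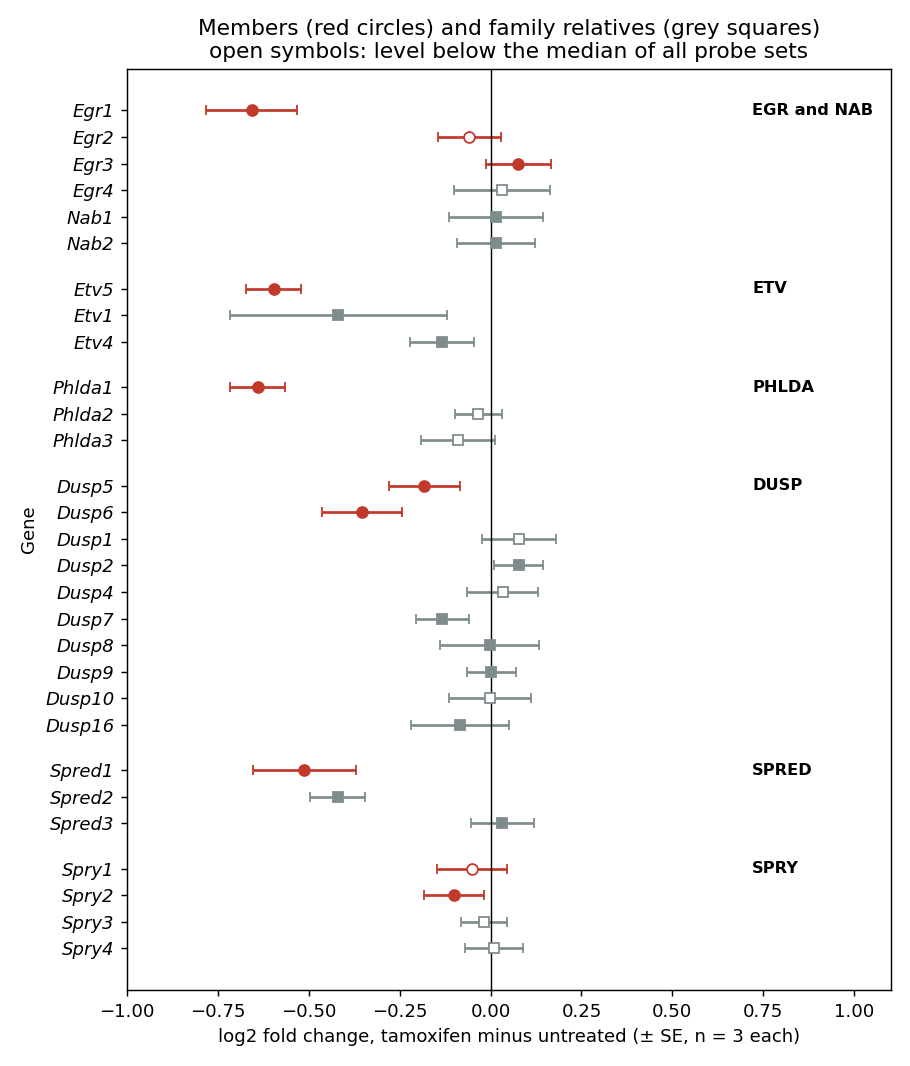
Log2 fold change, tamoxifen minus untreated, of the 10 genes (red circles) and their relatives (grey squares) grouped by family, with bars for ± SE of 3 samples per group and open symbols for levels below the median of all probe sets. Egr1, Etv5, Phlda1, Spred1 and Spred2 lie between -0.66 and -0.42, as does Etv1, whose bar is wide and whose groups overlap. A bar clear of 0 does not mark separate groups. The Sprouty, NAB and most DUSP genes lie near 0.

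The listed components of the ERK cascade had differences in both directions. The list mixes genes that carry the signal to ERK with inhibitors such as Rasa3 and genes downstream of ERK such as Mknk1. Of 42 listed genes 34 were measured, and the others were not analysed here. Limma called 0 of the 34 over the whole table, and with p taken unadjusted and under 0.05 there were 2 lower and 2 higher, where 2.14% and 2.97% of all probe sets were. The median log2 fold change was -0.01, with 18 negative and 16 positive. Map2k1 and Map2k2, which encode the kinases MEK1 and MEK2, measured -0.10 ± 0.09 and 0.03 ± 0.12 (SE). Nras and Braf measured 0.10 ± 0.09 and -0.11 ± 0.18 (SE). Mknk1, a kinase activated by ERK that phosphorylates the translation factor eIF4E, had the lowest unadjusted p of the list. It had intensities of 604, 503 and 530.3 in tamoxifen samples, against 417, 459 and 415 in untreated samples, a log2 difference of 0.31 ± 0.07 (SE) with a limma adjusted p = 0.404. Rasal3, a RAS GTPase-activating protein of lymphocytes, measured 0.19 ± 0.06 (SE) and Araf, a RAF kinase, 0.16 ± 0.09 (SE). Rasa3, another RAS GTPase-activating protein, measured -0.27 ± 0.08 (SE), and Elk3, an ETS partner of serum response factor, -0.22 ± 0.07 (SE). The limma adjusted p of these 4 genes was 0.733 or more.

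Other early-response genes had differences in both directions. Of 32 listed genes 31 were measured, limma called 0 of them over the whole table, and with p taken unadjusted and under 0.05 there were 4 lower and 3 higher, where 2.14% and 2.97% of all probe sets were. The median log2 fold change was -0.01, with 16 negative and 15 positive. Fos, the immediate early gene most often paired with Egr1, was dim, with intensities of 45.5, 52.6 and 55.1 in tamoxifen samples and of 62.2, 46.4 and 61.8 in untreated samples, and its log2 difference was -0.10 ± 0.10 (SE). Junb was below the median of all probe sets as well and measured 0.01 ± 0.09 (SE). Fos and Junb are named here after their values were seen.

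Trib1, a pseudokinase that targets other proteins for degradation, had intensities of 148.1, 148.1 and 146 in tamoxifen samples, against 213, 197 and 179.9 in untreated samples. Its groups were separate, with a log2 difference of -0.38 ± 0.07 (SE) and a limma adjusted p = 0.351. After normalisation 4 of the 31 measured genes of this list lay lower without overlap and 3 higher, where 4.87% and 5.03% of all probe sets did. Trib1 and Myc were among the lower ones, and the higher ones were Btg2, Klf6 and Mcl1. Myc, whose transcription and protein stability are both raised by ERK signalling, was bright and measured -0.22 ± 0.07 (SE) with a limma adjusted p = 0.721. In the opposite direction, Btg2, an antiproliferative gene, had intensities of 499, 297 and 328 in tamoxifen samples, against 271, 205 and 175 in untreated samples, a log2 difference of 0.72 ± 0.20 (SE) with a limma adjusted p = 0.683. Klf6, a zinc finger factor, measured 0.34 ± 0.07 (SE) with a limma adjusted p = 0.396. Mcl1, a survival factor of the BCL2 family, measured 0.24 ± 0.07 (SE) with a limma adjusted p = 0.745.

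The gene list of a published human score of MAPK pathway activity shares Phlda1, Spry2, Dusp6 and Etv5 with the 10 genes. All 10 of its mouse counterparts were measured, with 6 negative and 4 positive log2 differences and a median of -0.06. The 3 whose groups were separate after normalisation were Phlda1, Dusp6 and Etv5, all lower in tamoxifen samples, where 4.87% of all probe sets were. All 3 are among the shared genes, which were proposed with this comparison known, so nothing is read from this count. Its other members, Spry4, Dusp4, Ccnd1, Epha2, Epha4 and Etv4, lay between -0.13 and 0.03, and Spry4, Dusp4, Epha2 and Epha4 were below the median of all probe sets.

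**Figure D4:**
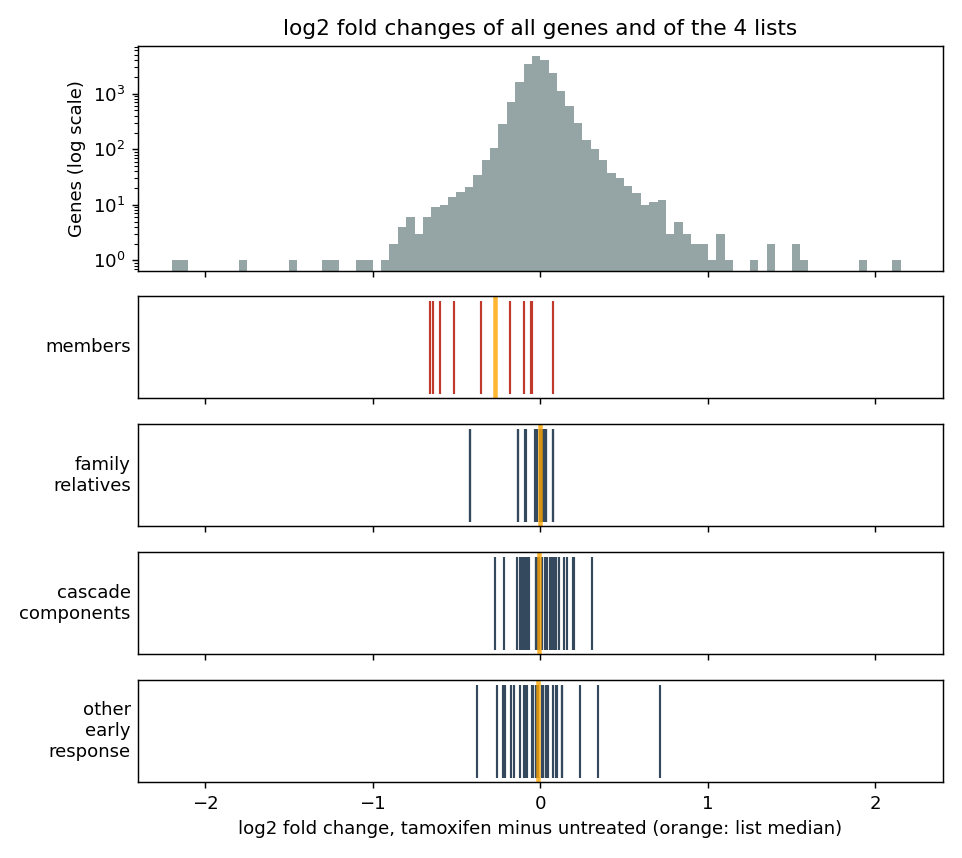
Histogram of the log2 fold changes of all 19937 genes (upper panel, count on a log axis) above the values of the 10 genes (red lines) and of the 3 other lists (dark lines), all tamoxifen minus untreated, with the list median in orange. The 10 genes spread from -0.66 to 0.08 with a median of -0.27, and the medians of the other lists lie between -0.01 and 0.00.

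The genes with the profile most like Egr1 were sought over the 6 arrays by the root mean square difference between log2 values, after each gene's own mean was subtracted. Among 10126 candidate genes at or above the median of all probe sets the 5 closest were Lrrc8c, Ephx1, Pim2, Ift43 and Epb41l5, with differences between 0.124 and 0.131 where the median candidate had 0.375. Their log2 fold changes ran from -0.79 for Ift43 to -0.44 for Ephx1. Of the other 9 genes, Etv5 (0.146) and Phlda1 (0.190) came closest to Egr1 and Egr3 (0.408) was farthest. For the mean profile of all 10 genes, with a log2 difference of -0.31, the 5 closest genes were Inppl1, Tspan13, Maml3, Cisd1 and Uhrf2, with differences between 0.0257 and 0.0431 where the median candidate had 0.187. The 10 genes themselves lay between 0.123 (Dusp5) and 0.222 (Egr1) from that mean. Egr1, Egr3 (0.208) and Spred1 (0.190) were farther from it than the median candidate. These likenesses are descriptions over 6 arrays that fall into 2 groups.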

How the data were processed

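Total RNA of 6 samples was hybridised to gene-level microarrays after conversion to biotinylated cRNA, per the labels' protocols. The authors deposited 1 linear intensity for each probe set of each array. Background correction, summarisation and array normalisation are not given in the sources used here. Groups and replicate numbers came from the sample titles.

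Values were converted to log2(intensity + 16) and quantile normalised. The groups were compared in R 4.3.3 with limma 3.58.1 (lmFit and eBayes, two-sided), adjusting by Benjamini-Hochberg over 34760 probe sets at a threshold of 0.05. Intensities printed in the text are as deposited. A platform table paired 21640 probe sets with 1 symbol, 1321 with several and 11799 with none, and a gene was read from its brightest probe set (highest mean log2 value). Control probe sets are not marked and were kept.

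The members and lists were chosen with earlier results of these data known. Named from a list were genes past the threshold and the 5 with the lowest unadjusted p among those at or above the median level, and family relatives whatever their result.

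In 5 simulations of 3 against 3 arrays, with changed probe sets at or above the median level, limma recovered 38% of 1.5-fold rises, 69.6% of 2-fold falls and 95.2% of 4-fold rises among 34760 probe sets, with 6.2 false calls each. The simulated noise was independent and held no array effects. Of the 4-fold rises alone 47.6 were called per simulation, against 20 calls in all in the data, which makes the Benjamini-Hochberg cutoff easier to pass. The rates may therefore overstate recovery in these data. Alternatives were the replicate block, each array left out, no further normalisation, a common median, cyclic loess, pseudocounts of 1 and 64, dim probe sets left out, an intensity trend with robust eBayes, and averaged probe sets. Leaving out both arrays numbered 1 was chosen after seeing the data. Figures used matplotlib 3.10.9.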

Additional observations from a re-analysis of the deposited data

How the results depend on the processing

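Of the 10 genes 0 passed limma in 14 of the 16 alternatives, 1 passed (Phlda1) with dim probe sets left out and 2 passed (Etv5 and Phlda1) with averaged probe sets. Phlda1 had the same log2 fold change, -0.64, in both, with fewer features tested. Over all alternatives the limma adjusted p ran from 0.0125 to 0.455 for Phlda1 and from 0.0304 to 0.505 for Etv5. The median of the 10 genes, -0.27, was -0.22 with a pseudocount of 64 and -0.43 with dim probe sets left out, where Egr2 and Spry1 are not tested. Without both arrays numbered 1, an alternative chosen after seeing the data, it was -0.20, Spry1 turned to 0.055, and limma called 0 probe sets, with 2488 under 0.05 before adjustment. With 1 array left out it ran from -0.34 (without untreated sample 3) to -0.17 (without untreated sample 1). With 1 array left out, Egr2 ran from -0.12 to 0.013 (without tamoxifen sample 3) and Spry1 from -0.13 to 0.0094 (without untreated sample 1), so both signs turned. The other 8 genes kept their sign under every alternative, which for separate groups carries little weight. Genes of the 3 pathway lists past the threshold numbered 0 throughout.

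The 20 calls over all probe sets stayed at 20 with cyclic loess and were 22 with a pseudocount of 64. They became 12 with no further normalisation, 3 with a common median, 11 with a pseudocount of 1 and 12 with an intensity trend. There were 46 with dim probe sets left out and 73 with averaged probe sets. With 1 array left out they ran from 0 to 6, with 6 when untreated sample 1 was dropped, 2 when tamoxifen sample 1 was dropped and 0 for any other array, where at least 1360 probe sets had an unadjusted p under 0.05. The cause was not tested. Of the 20 calls 7 were lower and 13 higher, against 2 and 10 with no further normalisation, 1 and 2 with a common median, 2 and 9 with a pseudocount of 1, and 3 and 9 with an intensity trend. Foxo1 kept a log2 fold change between -2.26 and -1.83 but passed in 8 of 16 alternatives.

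With the replicate number as a replicate block limma called 0 probe sets (2525 under 0.05 before adjustment), 0 of the 10 genes and 0 pathway genes, the median of the 10 genes stayed at -0.27, the lowest limma adjusted p among them was 0.157, and that of Foxo1 was 0.0936. Deviations from group means of same-numbered samples correlated at 0.256, 0.0547 and 0.302 over all probe sets and at 0.418, 0.128 and 0.406 over probe sets at or above the median level. Tamoxifen sample 2 correlated better with untreated sample 3, at 0.248 and 0.398 over the same sets. The labels do not state a pairing, and whether the numbers pair the samples is not settled by these values.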
